A study of Mus musculus with 18 samples.

Results

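The GIMAP genes (GTPases of the immunity-associated protein family) were followed by RNA-seq in sorted mouse regulatory T cells (Treg). The 8 family genes Gimap1, Gimap3, Gimap4, Gimap5, Gimap6, Gimap7, Gimap8 and Gimap9 were taken by name from the table of 23420 genes. The choice was made with earlier results of these data known. All 8 passed the filter on low counts, which 10630 genes passed. The 18 libraries form 6 groups of 3 replicates. The genotypes are FCre x C1fl/fl, FCre x C1fl/+ and FCre x C1+/+, written here as fl/fl, fl/+ and +/+, and each was sorted as effector and as resting Treg. Every group, the +/+ controls included, carries FCre. In this field that name stands for Cre driven by Foxp3, which directs recombination to Treg, but the labels do not spell it out. C1 is the floxed gene of a study of the CBM signalosome, the complex that links the T cell receptor to NF-kB. Neither the age, sex and tissue of the mice nor the sorting markers were stated in these sources. Nothing there ties replicates to separate mice, so p-values measure the spread between these samples, which may be technical.

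GIMAP proteins are GTP-binding proteins with an AIG1 domain, found mainly in lymphocytes and anchored to or recruited to organelle membranes. In mice and rats they are known for keeping naive T cells alive: loss of GIMAP5 leads to a severe loss of peripheral T cells. Members of the family have been reported to bind proteins of the Bcl2 family and of the Atg8 family of autophagy, and the genes sit together in a single cluster.

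In the build of the files, mm10 (GRCm38), the 8 genes lie at chr6:48647234-48770851, a span of 123.6 kb in the GENCODE vM21 annotation. All are protein-coding. Their order is Gimap8 (48647234 to 48660875), Gimap9 (48676129 to 48679114), Gimap4 (48684549 to 48692060), Gimap6 (48701582 to 48708225), Gimap7 (48718621 to 48724636), Gimap1 (48739054 to 48743795), Gimap5 (48746197 to 48754210) and Gimap3 (48764464 to 48770851). Gimap6 and Gimap3 are on the minus strand and the other 6 on the plus strand. Gimap8, which holds more GTP-binding domains than the others, has the longest coding sequence (2064 bases), and the other 7 have 873 to 984 bases.

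Gimap3 and Gimap5 are the closest pair. Their coding sequences were identical at 87.9% of 902 aligned bases, while the next pair, Gimap7 and Gimap9, reached 64.9% and the lowest pair, Gimap6 and Gimap7, 52.9%. The stretch below is shown because reads from it cannot be given to one of the pair. It is the longest run of identical coding bases, 140 in capitals, with 20 bases on each side in lower case, read along each gene's own strand within a single coding exon. It covers chr6:48765661-48765840 (minus strand) in Gimap3 and chr6:48752664-48752843 (plus strand) in Gimap5.
Gimap3: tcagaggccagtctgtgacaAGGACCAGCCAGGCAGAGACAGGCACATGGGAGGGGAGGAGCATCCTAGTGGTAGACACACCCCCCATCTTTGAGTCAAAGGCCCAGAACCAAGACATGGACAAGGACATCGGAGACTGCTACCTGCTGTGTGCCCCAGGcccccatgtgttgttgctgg
Gimap5: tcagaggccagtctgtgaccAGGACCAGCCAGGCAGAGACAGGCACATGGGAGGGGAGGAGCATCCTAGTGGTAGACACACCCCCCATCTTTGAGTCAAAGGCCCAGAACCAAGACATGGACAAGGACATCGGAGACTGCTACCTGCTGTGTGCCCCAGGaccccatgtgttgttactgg
Of all 50-base words in the transcripts of Gimap3, 7.52% also occur in Gimap5, and 4.53% of those of Gimap5 occur in Gimap3. The expected counts of Gimap1, Gimap3, Gimap4 and Gimap5 were not whole numbers in 18 of 18 libraries. RSEM divides reads that match several features, and the levels of these genes depend on that division. For Gimap4 no 50-base word shared with another gene was found, and the source of its fractions was not tested. Gm28053, an annotated gene that runs along Gimap7, Gimap1 and Gimap5 and is not in the counts table used here, shares 50-base words with Gimap7, Gimap1, Gimap5 and Gimap3. Gimap1os lies antisense to Gimap1, and no source used here gives the strand setting of the counting, so reads of the pair cannot be told apart.

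The 250 bases before the RefSeq start (GRCm38.p6) are shown for 4 genes. Gimap3, Gimap4 and Gimap9 were called lower in effector cells in every genotype. Gimap7 pointed higher in fl/+ and +/+, was near 0 in fl/fl and was not called in any genotype. Capitals mark, on either strand, the letters AGGAAG (a core of ETS sites), TGTGGT (RUNX), GTAAACA (FOXO) and CCACCC (KLF). No marked stretch overlaps another. The windows are chr6:48770852-48771101 (minus strand) for Gimap3, chr6:48684328-48684577 for Gimap4, chr6:48675885-48676134 for Gimap9 and chr6:48718371-48718620 for Gimap7, the last 3 on the plus strand.
Gimap3: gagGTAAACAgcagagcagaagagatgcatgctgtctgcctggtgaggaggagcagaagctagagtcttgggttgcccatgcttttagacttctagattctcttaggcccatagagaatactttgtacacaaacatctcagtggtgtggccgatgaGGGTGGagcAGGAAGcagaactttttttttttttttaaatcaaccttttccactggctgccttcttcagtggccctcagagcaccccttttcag
Gimap4: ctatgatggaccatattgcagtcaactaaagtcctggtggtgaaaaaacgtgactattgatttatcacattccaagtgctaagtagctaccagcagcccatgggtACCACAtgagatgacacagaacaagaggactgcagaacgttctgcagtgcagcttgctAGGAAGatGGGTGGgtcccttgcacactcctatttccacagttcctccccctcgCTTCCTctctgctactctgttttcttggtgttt
Gimap9: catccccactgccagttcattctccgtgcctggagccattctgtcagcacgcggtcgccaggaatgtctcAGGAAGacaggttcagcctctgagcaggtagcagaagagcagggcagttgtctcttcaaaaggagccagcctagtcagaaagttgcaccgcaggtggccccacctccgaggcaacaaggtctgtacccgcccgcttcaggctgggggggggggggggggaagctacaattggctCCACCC
Gimap7: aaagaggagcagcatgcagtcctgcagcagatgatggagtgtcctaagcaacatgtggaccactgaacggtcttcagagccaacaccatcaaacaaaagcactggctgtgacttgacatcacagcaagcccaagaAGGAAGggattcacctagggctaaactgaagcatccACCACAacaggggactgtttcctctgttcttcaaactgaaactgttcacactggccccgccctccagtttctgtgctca
AGGAAG was present before 7 of the 8 genes, and in 29.6% of all 32536 promoter windows of the same length. CCACCC was present before 5 of 8 (28.1% of all windows), and Gimap7 was among those without it. TGTGGT was present before Gimap1, Gimap4 and Gimap7 (14.0% of windows). GTAAACA was present before Gimap3 (3.17% of windows), 247 bases before the start, and TGACTCA, the AP-1 letters, before none (4.45% of windows). Gimap8 has 2 windows and was counted when either held the letters, AGGAAG and CCACCC being in the second only, while the percentages are over single windows. These are matches of letters in a fixed window and say nothing of binding.

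Library totals ran from 1658073 to 5756903 expected counts. The 8 genes together took 0.385 to 0.523% of each library, and a single member had 179 to 7975 expected counts in a library, so all 8 were measured well above the counting limit. Of the Treg and T cell markers fixed as a list, 8 of 9 were in the table, and Foxp3, the transcription factor that defines Treg, averaged 239 to 325 CPM over the 6 groups. Others of the list varied more, with group means of 81.6 to 407 CPM for Ctla4 and 200 to 516 CPM for Ikzf2. In effector against resting cells 1, 4 and 3 of 8 were called higher in fl/fl, fl/+ and +/+, and 0 lower. In fl/fl against +/+ effector cells 2 of 8 were called lower, beside 2.81% of all tested genes called in either direction. Summed markers of B cells (10 of 12 in the table) were 19.8 to 300.03 CPM and 0 of 8 tested were called between states. Summed myeloid markers (9 of 10) were 64.9 to 104 CPM, almost all of it Cst3. Of 2 tested myeloid markers, 1 was called higher in +/+ effector than resting cells, and 0 in fl/fl and fl/+. Summed CD8 T and NK cell markers (9 of 9) were 45.5 to 137 CPM. Of 4 tested, 1 was called higher in effector cells of each genotype, and 0, 2 and 2 lower in fl/fl, fl/+ and +/+. Of all tested genes, 5.01%, 9.72% and 9.49% were called higher in fl/fl, fl/+ and +/+, and 1.33%, 6.58% and 6.50% lower.

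Per length, the family had a steep and stable order. FPKM, which divides by gene length, is used for levels between genes. Gimap3 and Gimap4 were the highest in all 6 groups (group means of 541 to 802 FPKM), followed by Gimap6 (399 to 488 FPKM) and Gimap1 (249.9 to 288 FPKM). GIMAP4 is reported to act in the death of T cells, GIMAP6 binds Atg8 proteins, and GIMAP1 is needed for mature lymphocytes in mice. Gimap7, whose human protein stimulates GTP hydrolysis by other members, had 133 to 182 FPKM and Gimap9 had 94.8 to 123 FPKM. Gimap5 and Gimap8 were the lowest, at 60.7 to 78.4 FPKM. Gimap3 and Gimap4 exchanged first place: their libraries overlapped in the fl/fl effector group and in all 3 resting groups, and only in fl/+ and +/+ effector cells was Gimap3 above Gimap4 without overlap. The pair Gimap5 and Gimap8 overlapped in all 6 groups, and Gimap7 and Gimap9 overlapped in fl/fl effector, fl/fl resting and +/+ resting cells. Every other step in the order was free of overlap in all 6 groups.

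**Figure D1:**
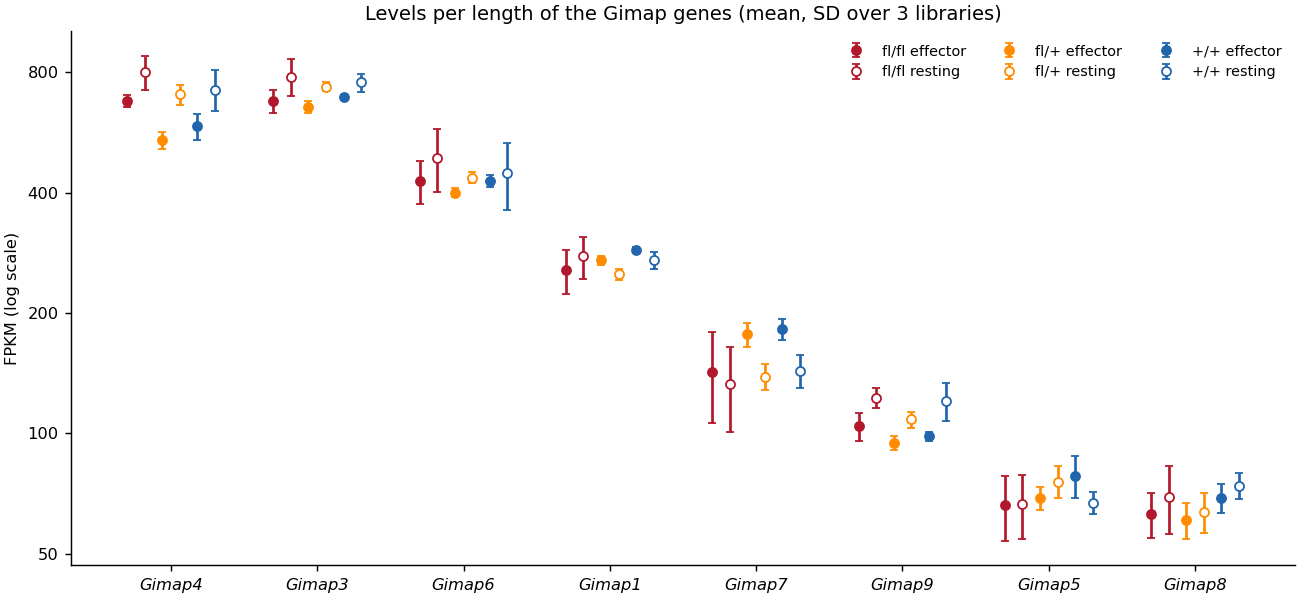
Mean FPKM of each Gimap gene (log axis) in the 6 groups, with SD over 3 libraries. Filled points are effector and open points resting cells, and colours are genotypes. Gimap3 and Gimap4 are at 541 to 802 FPKM, and Gimap5 and Gimap8 are at 60.7 to 78.4 FPKM.

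Between states, Gimap3, Gimap4 and Gimap9 were lower in effector than in resting Treg, and this was so in each of the 3 genotypes. The differences were small: the level fell by 13.8% for Gimap3 in +/+ and fell by 26.5% for Gimap4 in fl/+, and the other 7 called differences lay between these. With the edgeR quasi-likelihood F test at a Benjamini-Hochberg adjusted p under 0.05, 3 of 8 members were called lower in fl/fl, where 1.33% of all tested genes were called lower. In fl/+ 3 of 8 were called lower beside 6.58% of all genes, and in +/+ 3 of 8 beside 6.50%. No member was called higher, beside 5.01% of all genes in fl/fl, 9.72% in fl/+ and 9.49% in +/+. The median log2 change of the 8 members was -0.25 in fl/fl, -0.22 in fl/+ and -0.17 in +/+, against -0.012, -0.007 and -0.012 over all tested genes.

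Summed over the family, fl/fl effector cells had 3996 ± 211 CPM and fl/fl resting cells 4823 ± 422 CPM (SD, n = 3 each). Effector cells had 3756 ± 53.1 CPM and resting cells 4449 ± 89.5 CPM in fl/+. The +/+ values were 3990.1 ± 78.4 CPM in effector cells and 4575 ± 310 CPM in resting cells. In all 3 genotypes the highest effector library lay below the lowest resting library under TMM scaling. As a share of the library total, without that scaling, the states stayed apart in fl/+ alone, with 0.385 to 0.391% in effector and 0.418 to 0.438% in resting cells. They overlapped in fl/fl, with 0.385 to 0.449% in effector and 0.411 to 0.523% in resting cells, and in +/+, with 0.412 to 0.416% in effector and 0.414 to 0.489% in resting cells.

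Gimap4 had the largest fall of the family in fl/+. CPM is the count relative to the library total after TMM scaling between libraries. In fl/+ it had 795, 907 and 803 CPM in effector replicates 1 to 3, against 1155, 1081 and 1173 CPM in resting replicates 1 to 3. In +/+ the values were 856, 854 and 961 CPM in effector cells and 1099, 1086 and 1285 CPM in resting cells. In fl/fl they were 1057, 1060.1 and 1000.5 CPM in effector cells and 1384, 1295 and 1206 CPM in resting cells. No effector library reached a resting library of its own genotype, and the fl/fl effector libraries were all above the other 6 effector libraries. The log2 change was -0.32 (SE 0.086, edgeR adjusted p = 0.0310) in fl/fl, -0.44 (SE 0.086, adjusted p = 0.00129) in fl/+ and -0.38 (SE 0.087, adjusted p = 0.00463) in +/+. The calls in fl/+ and +/+ held in 14 of 14 alternatives and the call in fl/fl in 6 of 14. In fl/fl the adjusted p passed 0.05 without resting replicate 1 (log2 -0.26), without resting replicate 2 (-0.31), without effector replicate 1 (-0.32) and without effector replicate 3 (-0.29).

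Gimap9 fell by a similar share from a much lower level. Its +/+ values were 121.5, 127 and 118 CPM in effector replicates 1 to 3 and 159, 147.5 and 173 CPM in resting replicates 1 to 3. In fl/+ it had 122, 121 and 114 CPM in effector cells and 152, 145 and 138 CPM in resting cells. In fl/fl it had 136, 134 and 120.3 CPM in effector cells and 153, 178 and 159.99 CPM in resting cells. The groups were apart in every genotype, and over the 18 libraries, with TMM scaling, the highest effector value (136 CPM) lay below the lowest resting value (138 CPM). The log2 change was -0.33 (SE 0.092, edgeR adjusted p = 0.0378) in fl/fl, -0.29 (SE 0.091, adjusted p = 0.0342) in fl/+ and -0.39 (SE 0.092, adjusted p = 0.00596) in +/+. The +/+ call held in 14 of 14 alternatives, and the fl/fl and fl/+ calls in 4 of 14 each. The fl/fl call ended without resting replicate 2 (log2 -0.25), resting replicate 3 (-0.33) or effector replicates 1 (-0.35), 2 (-0.34) or 3 (-0.28). The fl/+ call ended without resting replicates 1 (-0.25) or 2 (-0.28) or effector replicates 1 (-0.30), 2 (-0.29) or 3 (-0.26).

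Gimap3, a partner of Gimap5 in mouse T cells, had the smallest called change within each genotype and the smallest SE of the family. In fl/+ it had 1320, 1294 and 1303 CPM in effector replicates 1 to 3, against 1599, 1537 and 1563 CPM in resting replicates 1 to 3. In fl/fl it had 1399.8, 1349 and 1302 CPM in effector cells and 1767, 1652 and 1539.7 CPM in resting cells. In +/+ it had 1356, 1418 and 1351 CPM in effector cells and 1547, 1589 and 1646 CPM in resting cells. With TMM scaling all 9 effector libraries were below all 9 resting libraries. The log2 change was -0.29 (SE 0.069, edgeR adjusted p = 0.0143) in fl/fl, -0.26 (SE 0.069, adjusted p = 0.0118) in fl/+ and -0.21 (SE 0.069, adjusted p = 0.0406) in +/+. The call held in 6, 9 and 2 of 14 alternatives in fl/fl, fl/+ and +/+. It ended in fl/fl without resting replicates 1 (log2 -0.23) or 2 (-0.28) or effector replicate 3 (-0.27), in fl/+ without resting replicate 1 (-0.25), and in +/+ without any 1 of its 6 libraries (-0.23 to -0.19).

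Gimap6 and Gimap8 pointed the same way and were not called in any single genotype. Gimap6 had 682, 564 and 643 CPM in fl/fl effector replicates 1 to 3 and 878.5, 741 and 673 CPM in fl/fl resting replicates 1 to 3. Its log2 change was -0.28 in fl/fl (edgeR adjusted p = 0.152), -0.22 in fl/+ (adjusted p = 0.187) and -0.15 in +/+ (adjusted p = 0.390). Gimap8, whose loss in mice affects mature B cells, had 255, 232 and 225 CPM in +/+ effector cells and 267, 261 and 287 CPM in +/+ resting cells. Its log2 change was -0.22 in fl/fl (adjusted p = 0.307), -0.17 in fl/+ (adjusted p = 0.354) and -0.19 in +/+ (adjusted p = 0.284). Gimap6 overlapped between states in fl/fl and +/+, and Gimap8 in fl/fl and fl/+.

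Gimap1 and Gimap5 had no shared direction. Gimap1 had 377, 411 and 387 CPM in +/+ effector cells and 388, 389 and 402 CPM in +/+ resting cells, so these groups overlapped. In fl/fl it had 386, 339 and 322 CPM in effector cells and 420.5, 433 and 358 CPM in resting cells. The log2 change of Gimap1 was -0.21 in fl/fl, 0.02 in fl/+ and -0.01 in +/+ (edgeR adjusted p = 0.184, 0.894 and 0.971). Gimap5, the member tied to T cell survival, had 141, 159 and 121 CPM in +/+ effector cells and 132, 122 and 129.5 CPM in +/+ resting cells. The log2 change of Gimap5 was -0.09 in fl/fl, -0.23 in fl/+ and 0.13 in +/+ (adjusted p = 0.758, 0.249 and 0.556).

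Gimap7 was the exception in direction. In +/+ it had 203, 200.3 and 215 CPM in effector replicates 1 to 3 and 166, 168 and 187 CPM in resting replicates 1 to 3. In fl/+ it had 187, 205 and 215 CPM in effector cells and 172, 183 and 152 CPM in resting cells. In both genotypes every effector library was above every resting library. In fl/fl the effector libraries spread from 125 to 198 CPM and the resting libraries from 119.85 to 183 CPM, and they overlapped. The log2 change was 0.01 (SE 0.15, edgeR adjusted p = 0.976) in fl/fl, 0.25 (SE 0.15, adjusted p = 0.277) in fl/+ and 0.25 (SE 0.15, adjusted p = 0.292) in +/+, so Gimap7 was not called. The 95% interval in +/+ ran from -0.06 to 0.56.

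**Figure D2:**
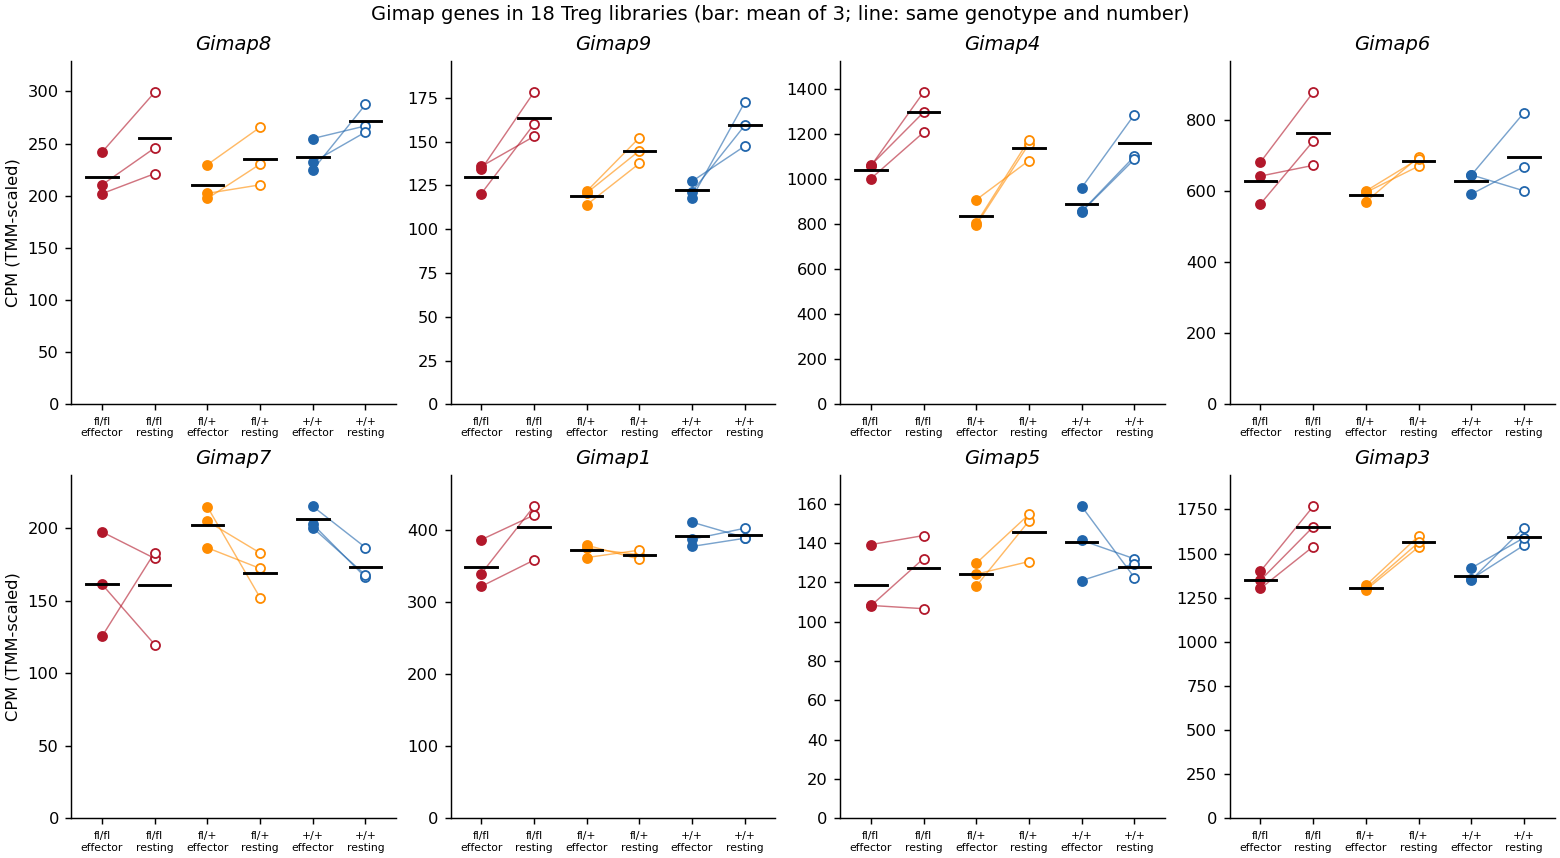
CPM of each Gimap gene in every library, with axes from 0. Filled points are effector and open points resting libraries, lines join libraries of the same genotype and number, and bars are means of 3. Gimap3, Gimap4 and Gimap9 are lower in effector cells in every genotype, while Gimap7 in fl/+ and +/+ is higher in every effector library.

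Groups that do not overlap were found for 3 of 8 members in fl/fl (21.7% of all tested genes), 6 of 8 in fl/+ (34.1%) and 5 of 8 in +/+ (32.3%). All were lower in effector cells except Gimap7 in fl/+ and +/+, which was above. With library totals in place of TMM the counts were 2, 6 and 5 of 8 members. The share of all genes was not computed for that scaling, so these counts have no background beside them. Gimap4 and Gimap9 were lower in every genotype and Gimap3 in fl/+ and +/+. Gimap6 was lower in fl/+, and Gimap7 and Gimap1 were above in fl/+ and +/+. Libraries of the same genotype and number varied together, which allowed 9 comparisons of an effector with its resting library. Gimap3, Gimap4, Gimap8 and Gimap9 were lower in effector cells in 9 of 9 and Gimap6 in 8 of 9. Gimap1 and Gimap5 were lower in 6 of 9, and Gimap7 was higher in 8 of 9. The exception for Gimap7 was fl/fl replicate 2. No share of all genes is given beside these counts of pairs.

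A comparison of the states over the mean of the 3 genotypes, added after the data were seen, gave 5 of 8 members called lower beside 15.4% of all tested genes. Besides Gimap3 (log2 -0.26, edgeR adjusted p = 4.59e-05), Gimap4 (-0.38, adjusted p = 6.31e-06) and Gimap9 (-0.33, adjusted p = 5.22e-05) these were Gimap6 (-0.22, adjusted p = 0.0115) and Gimap8 (-0.20, adjusted p = 0.0280). The first 3 were called in 25 of 25 alternatives, Gimap6 in 22 of 25 and Gimap8 in 14 of 25. Gimap7 was at 0.17 (SE 0.086, adjusted p = 0.136) and was called higher in 4 of 25. Over all 9 effector and 9 resting libraries 3 of 8 members, Gimap3, Gimap4 and Gimap9, did not overlap, as was so for 4.34% of all genes. With library totals 0 of 8 members were apart over all 18 libraries, and the share of all genes was not computed.

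**Figure D3:**
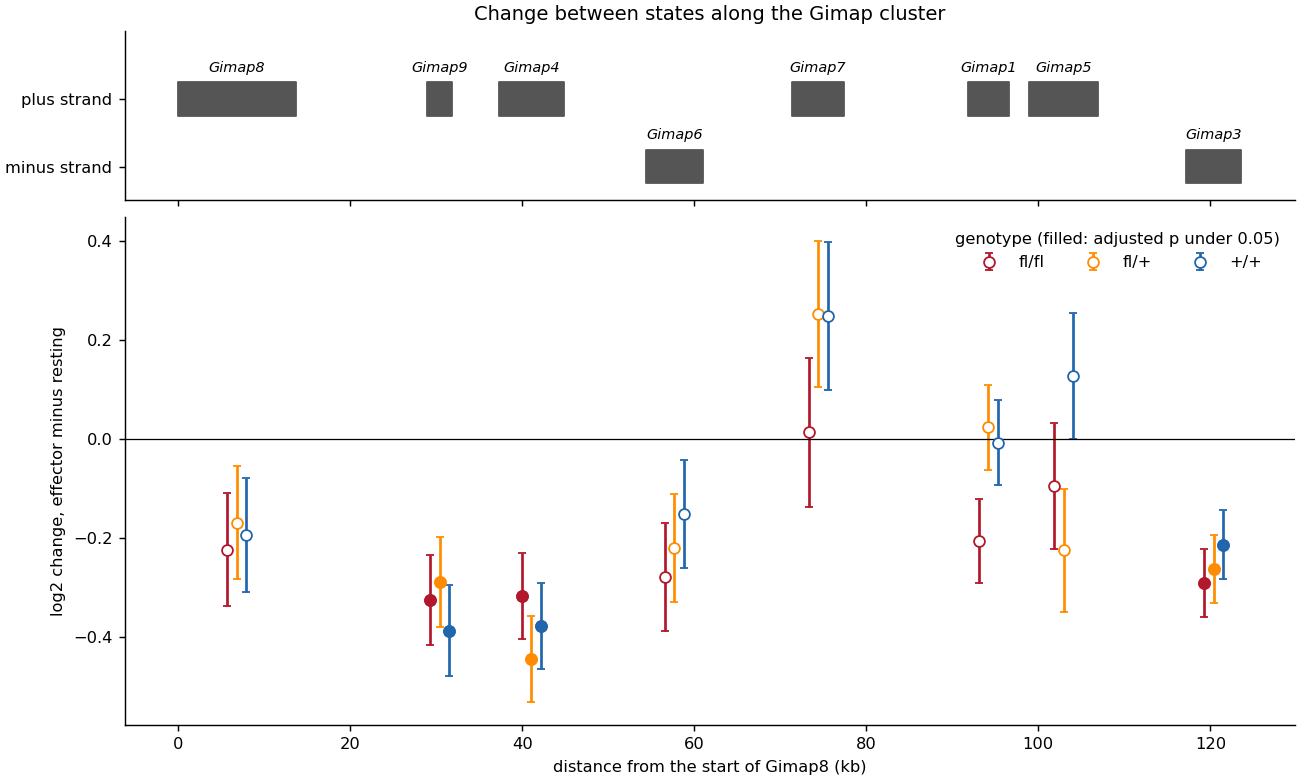
Top, the 8 genes by distance in kb from the start of Gimap8, by strand. Bottom, the log2 change of each, effector minus resting, in the 3 genotypes with its SE; filled points have an adjusted p under 0.05. Filled points appear for Gimap9 and Gimap4, which follow Gimap8, and for Gimap3 at the far end. The Gimap7 points lie between 0.01 and 0.25.

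All of these sizes depend on how libraries are scaled. Effector libraries had higher TMM factors than resting libraries of the same number and genotype, and with library totals alone the median of all genes moved to 0.073 in fl/fl, 0.090 in fl/+ and 0.087 in +/+, a shift under 0.1. The member medians moved with it to -0.17, -0.13 and -0.08. Of the calls, 0 of 3 then passed in fl/fl, 1 of 3 in fl/+ (Gimap4) and 2 of 3 in +/+ (Gimap4 and Gimap9). The share of called genes that were higher in effector cells was 79.1% in fl/fl, 59.6% in fl/+ and 59.4% in +/+, against 92.1%, 74.8% and 73.6% with library totals and 92.5%, 75.5% and 74.3% with log2(FPKM + 1). With a replicate block for genotype and number, all 9 member calls stayed, while the number of genes called in fl/fl went to 1071 beside 674.

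Ratios within a library do not depend on scaling. Gimap7 and Gimap4 were chosen for this after their values were seen, and their ratio is given with no test. In +/+ cells there were 23.7, 23.5 and 22.4 Gimap7 counts per 100 Gimap4 counts in effector replicates 1 to 3, against 15.1, 15.4 and 14.5 in resting replicates 1 to 3. In fl/+ cells there were 23.4, 22.6 and 26.8 in effector cells and 14.9, 16.9 and 13.0 in resting cells. The states were far apart in both genotypes. In fl/fl cells there were 18.7, 11.8 and 16.1 in effector cells and 13.0, 14.2 and 9.94 in resting cells, and the states overlapped. All 3 fl/fl effector libraries were below all 6 other effector libraries, and fl/fl effector replicate 2 was below its own resting library. As a share of the family's summed FPKM, Gimap7 made up 5.86% in effector and 4.81% in resting cells of fl/fl, 7.80% and 5.53% in fl/+, and 7.51% and 5.52% in +/+. Of the 28 pairs of members, 0 had ratios that were apart over all 9 effector and 9 resting libraries.

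**Figure D4:**
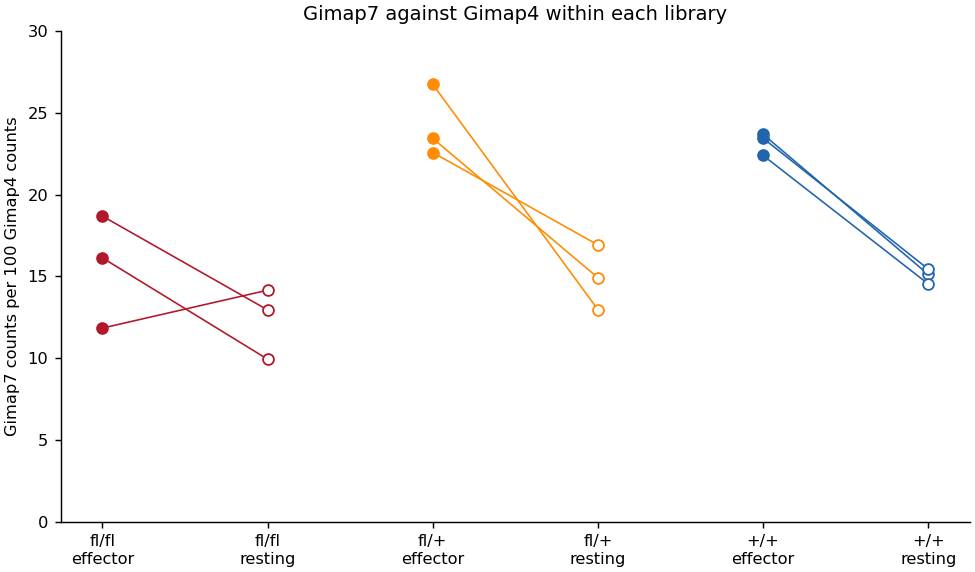
Gimap7 counts per 100 Gimap4 counts in each library, with lines joining effector and resting libraries of the same genotype and number. The fl/+ and +/+ effector libraries are at 22.4 to 26.8, the fl/fl effector libraries at 11.8 to 18.7 and the resting libraries at 9.94 to 16.9.

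Between genotypes, no member was called in either state. Few of all tested genes were called either, so 0 of 8 members is near the share of all genes. The counts alone do not tell whether genotype moved the family. In effector cells 0 of 8 members were called for fl/fl against +/+ (2.81% of all tested genes were called), 0 of 8 for fl/fl against fl/+ (0.677%) and 0 of 8 for fl/+ against +/+ (0.00941%). In resting cells the counts were 0 of 8 for fl/fl against +/+ (0.696%), 0 of 8 for fl/fl against fl/+ (0.0282%) and 0 of 8 for fl/+ against +/+ (0.0847%). An unadjusted edgeR p under 0.05 was reached by 2 members for fl/fl against +/+ and by 2 for fl/fl against fl/+ in effector cells, Gimap4 and Gimap7 in both. In resting cells it was reached by Gimap4 alone, for fl/fl against fl/+. For fl/+ against +/+ effector cells it was reached by 0 members. Apart from the DESeq2 call of Gimap4 given below, neither DESeq2 nor limma called a member in these comparisons. These comparisons share libraries, so they are not independent of each other. For fl/fl against +/+ in effector cells the number of all genes called was 299, and 32 to 664 with a library left out.

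Gimap4 and Gimap7 came closest to a call, in opposite directions, in fl/fl effector cells. The log2 difference was 0.22 against +/+ (95% interval 0.04 to 0.40, edgeR adjusted p = 0.172) and 0.32 against fl/+ (0.14 to 0.50, adjusted p = 0.0965). DESeq2 called Gimap4 in the comparison with fl/+ (log2 0.32), and so did edgeR without fl/+ effector replicate 2 (log2 0.38). Gimap7 was at -0.35 against +/+ (95% interval -0.66 to -0.03, adjusted p = 0.234) and at -0.32 against fl/+ (-0.63 to -0.01, adjusted p = 0.412). Without fl/fl effector replicate 1 Gimap7 was called lower against +/+ (log2 -0.54, adjusted p = 0.0428). In effector cells 2 of 8 members, Gimap4 above and Gimap7 below, had no overlap between fl/fl and +/+ libraries (20.5% of all genes).

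For the other 6 members the fl/fl minus +/+ difference in effector cells was between -0.23 (Gimap5) and 0.10 (Gimap9), with adjusted p between 0.359 and 0.990. In resting cells all 8 were between -0.11 (Gimap7) and 0.16 (Gimap4). The 95% intervals give the sizes these libraries leave room for: over all 8 members they reached from -0.66 to 0.40 in effector cells and from -0.42 to 0.36 in resting cells for fl/fl against +/+. For fl/+ against +/+ they reached from -0.44 to 0.28 in effector and from -0.44 to 0.44 in resting cells. A change of a single member beyond 1.32-fold up or below 0.633-fold in fl/fl effector cells is thus outside every member's interval. Smaller ones lie within the interval of at least 1 member. These outer bounds come from Gimap4 and Gimap7, and other members leave less room, such as Gimap3 with -0.17 to 0.12. They are therefore not bounds on a change shared by all 8 members.

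**Figure D5:**
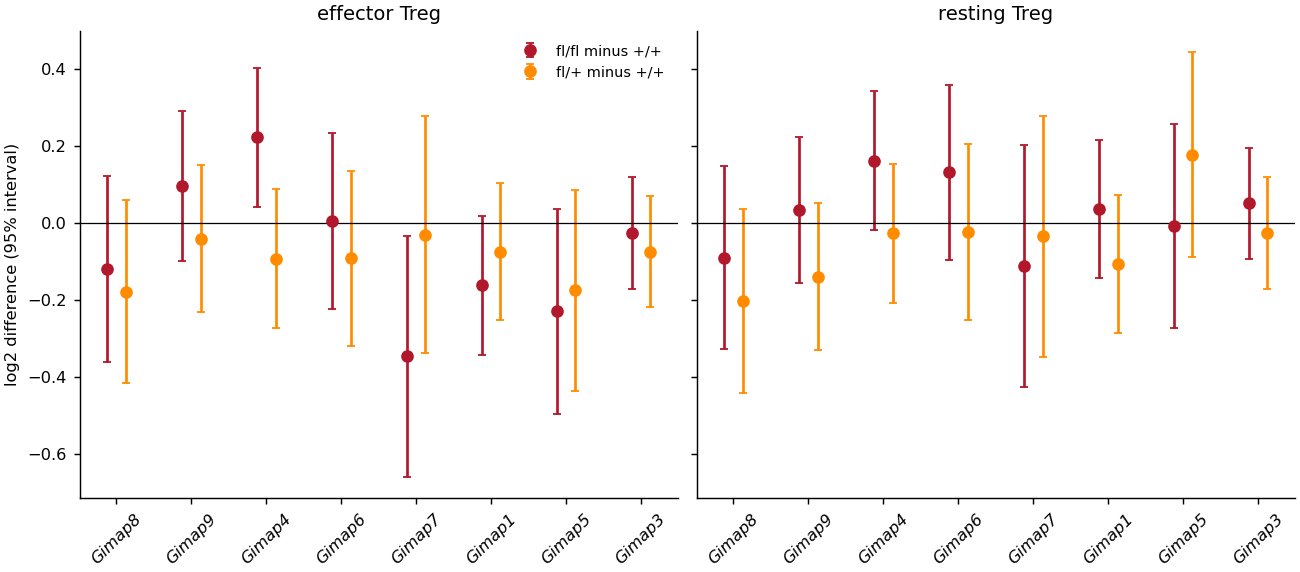
Log2 difference of each Gimap gene between fl/fl and +/+ and between fl/+ and +/+ in effector (left) and resting cells (right), with 95% intervals. In effector cells the fl/fl minus +/+ intervals of Gimap4 (0.04 to 0.40) and Gimap7 (-0.66 to -0.03) leave out 0 before adjustment over all genes.

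Whether the change between states differs with genotype was tested as an interaction. For fl/fl against +/+, 0 of 8 members were called, beside 0.00% of all genes, and none of the 8 had an unadjusted p under 0.05. DESeq2 also called 0 of 8. The term was -0.23 for Gimap7 (SE 0.21, edgeR adjusted p = 0.807), -0.20 for Gimap1 (SE 0.12, adjusted p = 0.671) and 0.06 for Gimap4 (SE 0.12, adjusted p = 0.932). For fl/+ against +/+, 0 of 8 were called (0.0188% of all genes), with Gimap5 the farthest from 0 at -0.35 (SE 0.18, adjusted p = 1.00).

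Of 15 Foxo factors and genes of lymphocyte quiescence, 3 were called lower in fl/fl effector cells, 6 in fl/+ and 7 in +/+, and 0 higher, beside 1.33%, 6.58% and 6.50% of all genes called lower. Lef1, a transcription factor of naive T cells, was at -0.71, -1.35 and -1.48 on the log2 scale in fl/fl, fl/+ and +/+ (edgeR adjusted p = 0.0165, 4.09e-05 and 2.01e-05). Satb1, a chromatin organiser, was at -0.83, -1.70 and -1.97 (adjusted p = 0.0233, 3.75e-05 and 1.43e-05). Between fl/fl and +/+ effector cells 7 of the 15 were called higher (1.17% of all genes), among them Lef1 at 1.06 (adjusted p = 0.00425), Satb1 at 1.27 (adjusted p = 0.00613) and Bach2, a repressor of effector differentiation, at 0.80 (adjusted p = 0.0125). In the same comparison 0 of 8 Gimap genes were called. Whether the lists differ was not tested.

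Of 13 tested genes of the Bcl2 family, 3 were higher and 0 lower in fl/fl effector cells, 2 higher and 3 lower in fl/+, and 4 higher and 2 lower in +/+. Of all tested genes, 5.01% were called higher and 1.33% lower in fl/fl, 9.72% and 6.58% in fl/+, and 9.49% and 6.50% in +/+. Bcl2, which protects from cell death, had a mean of 322 CPM in fl/+ effector cells and 737 CPM in fl/+ resting cells, a log2 change of -1.20 (edgeR adjusted p = 0.000236), and it was at -1.42 in +/+ (adjusted p = 5.51e-05). Bcl2l11, which encodes the death inducer Bim, fell with it, at -0.9995 in fl/+ (adjusted p = 0.000338) and -0.87 in +/+ (adjusted p = 0.00162). Bcl2a1b was higher in all 3 genotypes, at 1.09, 1.44 and 1.57 in fl/fl, fl/+ and +/+ (adjusted p = 0.00868, 0.000238 and 0.000117). It has near-identical copies, between which its reads could be divided.

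Of 12 genes of the Atg8 family and autophagy, 0 were called in fl/fl, 2 higher in fl/+ and 1 higher in +/+, beside 5.01%, 9.72% and 9.49% of all genes called higher. Gabarapl1 was the one called in both, at 1.26 in fl/+ (edgeR adjusted p = 0.00363) and 1.39 in +/+ (adjusted p = 0.00196). Gabarapl2, the partner reported for GIMAP6, was at -0.14, -0.10 and -0.22 in fl/fl, fl/+ and +/+ and was not called (adjusted p = 0.556, 0.628 and 0.217).

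Of 6 tested genes listed as neighbours of the cluster, 0 were called in fl/fl, 1 was higher in fl/+ and 3 were higher in +/+. Of all genes, 5.01%, 9.72% and 9.49% were called higher. The list is imperfect: Kcnh2, among these 6, is not one of the annotated genes around the cluster. It also leaves out genes that lie there, such as AI854703. No gene of this list was called lower, beside 1.33%, 6.58% and 6.50% of all genes. Repin1, a zinc finger gene before Gimap8, had a mean of 8.28 CPM in +/+ effector cells and 0.652 CPM in +/+ resting cells (log2 3.54, edgeR adjusted p = 0.00119), and was at 2.32 in fl/+ (adjusted p = 0.00839). After Gimap3, Tmem176a and Tmem176b, a pair of membrane protein genes that overlap at their ends, were at 2.90 and 2.00 in +/+ (adjusted p = 0.00262 and 0.00238). These are low genes, with group means of 0.652 to 23.4 CPM, against 118 to 1653 CPM for the Gimap genes.

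Markers of other cells and of division also moved with state. Summed CPM of 7 markers of conventional CD4 T cells was 458 to 929 in effector and 716 to 931 in resting libraries of fl/fl, 339 to 446 and 652 to 886 in fl/+, and 379 to 442 and 750.3 to 948 in +/+. Of the 6 tested, 3 were called higher and 3 lower in +/+, so they did not move as a group. The endothelial list was lower in effector cells through Pecam1, which T cells also express (mean 107 against 217 CPM in fl/+), while its 7 other markers were at a mean of at most 0.819 CPM in every group. Of 14 proliferation genes 14, 13 and 10 were called higher in effector cells of fl/fl, fl/+ and +/+, with median log2 changes of 2.82, 2.34 and 1.46. The part of these in the Gimap values was not tested. In these bulk libraries fewer cells that express a gene and less RNA per cell cannot be told apart.

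Over the 18 libraries, members varied together unevenly. Gimap3 and Gimap9 were the most alike pair (Pearson r = 0.88 of log2 CPM) and Gimap4 and Gimap7 the least (r = -0.46), with a median of 0.49 over 28 pairs. After group means were removed, Gimap4 and Gimap7 were at 0.34 and the 28 pairs lay between 0.035 and 0.79, so libraries of a group that were high in 1 member tended to be high in others. Against the mean of the other 7, Gimap3 had the highest r (0.85) and Gimap7 the lowest (-0.08, and 0.71 after group means were removed). These correlations share libraries and scaling, and are descriptions. The family mean had an r of -0.03 with log2 library total.

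Outside the family, the 5 genes most like its mean log2 CPM, of 8833 ranked over the 18 libraries, were Oasl1, Irf1, Zdhhc18, Pot1b and Taok1. Oasl1, an interferon-induced gene, had r = 0.90 (0.86 after group means were removed), and Irf1, an interferon regulatory factor, r = 0.83 (0.64). Zdhhc18 had r = 0.79 (0.47), Pot1b r = 0.78 (0.79) and Taok1 r = 0.78 (0.64). Between states Oasl1 was at -1.24, -1.67 and -1.21 on the log2 scale in fl/fl, fl/+ and +/+, called in fl/+ only (edgeR adjusted p = 0.0906, 0.00912 and 0.0645). Irf1 was at -0.20, -0.35 and -0.18, called in fl/+ only (edgeR adjusted p = 0.326, 0.0264 and 0.276). In the interaction of fl/fl against +/+ 0 of all tested genes were called, Oasl1 and Irf1 included. Their interaction values for fl/+ against +/+ are not reported here.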

How the data were processed

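RNA-seq was made from sorted Treg lysed in TCL buffer with beta-mercaptoethanol, per the labels' protocols. RSEM 1.2.8, STAR 2.6.0 and bcl2fastq 2.17.1.14 are listed with build mm10, per the submitters' processing notes. No source used here gives annotation, strand setting or filters. The authors deposited RSEM expected counts (estimated counts), which were rounded to whole numbers for every main test. Of the nonzero values 29.4% were not whole. The authors deposited FPKM values too, which served for levels between genes and for alternatives. The level of the floxed gene is not reported here.

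Library totals were 1658073 to 5756903 counts, with Rn45s, a ribosomal RNA gene, at 10.9 to 16.4%. Replicates differed beyond counting error, with a chi-square per gene of at least 3.53. In R 4.3.3, edgeR 4.0.16 fitted 6 group means to all 18 libraries (TMM, filterByExpr by group, 10630 of 23420 genes, quasi-likelihood F test, Benjamini-Hochberg over all tested genes, called under 0.05). Groups are the labels' genotype and state, and replicate numbers follow the sample titles. The batch number recorded for each sample equals its replicate number. A log2 value is the first group named minus the second. The steps of the comparisons between states were tested on simulated data, with changes larger than those of the Gimap genes. A single value of 3 against 3 libraries cannot go below an exact permutation p of 0.1.

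In the residuals the 9 pairs of one genotype and number correlated at 0.141 to 0.345, all over 0.1, so numbers pair the states within a genotype. Same number and other genotype gave a mean of 0.067 over 36 pairs (-0.078 to 0.296), with 12 over 0.1. Across genotypes the link by number was thus weaker and uneven, and whether genotypes share a batch was not tested.

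The members and lists were chosen with earlier results of these data known. Named were all 8 Gimap genes, called list members (up to 4 per list and comparison by p), uncalled ones with their values, and the 5 genes most like the family mean (log2 CPM, prior count 2, mean of at least 5 CPM). Promoters are from RefSeq, for all 8 genes, and transcripts from GENCODE vM21; identity is over global alignments of coding sequence. Alternatives were RLE scaling, library totals, no count filter, only the groups compared, DESeq2 1.42.0, limma 3.58.1 on log2(FPKM + 1) and log2(FPKM + 0.1), a replicate block, and each library left out. Scaling by library totals and the comparison over the mean of the genotypes were chosen after seeing the data.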

Additional observations from a re-analysis of the deposited data

How the results depend on the processing

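The count of 3 Gimap genes lower in fl/fl effector cells went to 0 with library totals, 0 with only the groups compared, 0 with log2(FPKM + 1), 0 with log2(FPKM + 0.1) and 1 (Gimap4) without a count filter, and to between 0 and 2 with a library left out. In fl/+ it went to 1 (Gimap4) under library totals, no filter and both FPKM scales, and to 1 to 3 with a library left out. For fl/fl against fl/+ effector cells the count of 0 went to 1 (Gimap4) with DESeq2, and to 0 to 1 with a library left out, as for fl/fl against +/+ effector cells. The counts of all other comparisons, taken in either direction, stayed within 1.5 times. Over the mean of the genotypes, neither Gimap6 (limma adjusted p = 0.246) nor Gimap8 (limma adjusted p = 0.351) was called lower with log2(FPKM + 0.1). The replicate block changed no member's call: 3, 3 and 3 members between states. The number of all genes called in fl/fl against +/+ effector cells was 299, against 552 with the block, 830 without a filter, 143 with only the groups compared, 455 with DESeq2 and 183 with log2(FPKM + 0.1). Without +/+ effector replicates 1, 2 or 3 it was 32, 51 and 539, and without fl/fl effector replicates 1, 2 or 3 it was 664, 35 and 91. For fl/fl between states it was 674, against 1071 with the block, 1012 without a filter and 334 with only the groups compared, and 276 without effector replicate 1, 337 and 295 without resting replicates 2 and 3, and 479 to 798 without the others. In fl/+ 1732 went to 1091 without effector replicate 3 and 1124 without resting replicate 1. The other genotype comparisons and interactions had 0 to 74 genes called; with left-out libraries included the counts ran from 3 to 488 for fl/fl against fl/+ effector cells (72 as reported), 0 to 176 for fl/+ against +/+ effector cells (1), 6 to 315 for fl/fl against +/+ resting cells (74), 3 to 94 for fl/fl against fl/+ resting cells (3), 3 to 219 for fl/+ against +/+ resting cells (9), and 0 to 246 (0) and 2 to 31 (2) for the interactions of fl/fl and fl/+. The highest of each was without a filter on low counts.

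Values near 0 changed sign without being called. Gimap1 in +/+ (-0.01) went to 0.012 with RLE, 0.089 with library totals, 0.005 with only the groups compared, 0.011 with DESeq2, 0.087 and 0.088 with the FPKM scales, and -0.038 to 0.029 with a library left out. Over the mean of genotypes Gimap1 (-0.06) went to 0.029, 0.029 and 0.030 and Gimap5 (-0.06) to 0.029, 0.024 and 0.024 with library totals and the FPKM scales. With a library left out, Gimap5 in fl/fl ran from -0.225 to 0.007 and Gimap7 in fl/fl ran from -0.161 to 0.171. The cause was not tested. A Gimap gene had at least 179 counts in every library.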
